A study of Homo sapiens with 12 samples.

Results

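The genes described here are 10 regulators of entry into the cell cycle: the CDK inhibitors CDKN2A, CDKN2B and CDKN2C (INK4 family) and CDKN1A, CDKN1B and CDKN1C (CIP/KIP family), the D cyclins CCND1 and CCND2, and the kinases CDK4 and CDK6. The rule names them and uses no measured value, and all 10 are among the 57169 rows of the deposited table of gene counts. The samples were 6 RING1B knock-down and 6 control tumours, all xenografts of SK-ES1 (a cell line established from an Ewing sarcoma, with the EWSR1-FLI1 fusion). Controls bear the label wild-type, and the labels name neither the agent of the knock-down nor a control agent, nor the host species, nor the time of harvest. All tumours come from 1 cell line, and the labels do not say whether each library is a separate animal, so the p-values measure the spread between these libraries.

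Cells pass from G1 into S phase when a D cyclin bound to CDK4 or CDK6 phosphorylates the retinoblastoma protein RB1, which releases E2F transcription factors. INK4 proteins bind CDK4 and CDK6 and keep D cyclins off them, while CIP/KIP proteins bind complexes of cyclin and CDK, above all those of CDK2. CDKN2A, which encodes p16INK4A and, from a second start and another reading frame, p14ARF, is the textbook target of Polycomb repressive complex 1 (PRC1), whose catalytic subunit RING1B is encoded by RNF2. CCND1 is known as a target of EWSR1-FLI1.

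Total counts were 23859184 to 26345508 in knock-down and 24574794 to 26678325 in control libraries. On the scale used for every CPM here (reads of a gene over the library size, adjusted by the TMM factor), 3 reads, taken as the floor, correspond to 0.109 to 0.128 CPM. RNF2 was at 12.4, 18.4 and 23.4 CPM (lowest, median, highest) in knock-down libraries, against 37.5, 49.2 and 57.9 CPM in controls. The groups did not overlap (log2 fold change −1.43, SE 0.174, edgeR adjusted p = 0.00347). A two-sided exact permutation test on log2 CPM yielded p = 0.00216, its minimum in this design. Of 13 Ewing sarcoma markers, all but CD99 had reads in every library. CD99 was listed at 0 in all 12 libraries, and its name stands for 2 loci of the annotation. Knockdown 4, knockdown 5 and control 6 correlated least with the other libraries (median r of log2 CPM 0.955, 0.967 and 0.966).

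The set spanned a wide range of levels, with 1 cyclin, 1 kinase and a pair of inhibitors far above the rest. Per length, in TPM (transcript abundance computed from counts and the summed exon length of each gene), the means over 12 libraries were 735 for CCND1, 198 for CDK4, 87.4 for CDKN2C, 73.4 for CDKN1B and 22.7 for CDKN1A. CDKN1C was at 3.71 TPM, and CDK6, CDKN2A, CCND2 and CDKN2B were at 0.563, 0.464, 0.371 and 0.231 TPM. CCND1 exceeded CDK4, CDK4 exceeded CDKN2C, CDKN1B exceeded CDKN1A and CDKN1A exceeded CDKN1C in each of the 12 libraries. CDKN2C exceeded CDKN1B in 9 of 12, so these neighbours were not separated. The 4 lowest genes were not in a fixed order either, with CDK6 above CDKN2A in 6 of 12 libraries and CCND2 above CDKN2B in 6 of 12.

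Each class was carried by 1 or 2 genes. CCND1 made up at least 99.9% of the summed TPM of the 2 D cyclins in every library, CDK4 at least 98.8% of that of CDK4 and CDK6, and CDKN2C at least 98.7% of that of the INK4 genes. CDKN1B held 63.0% to 80.8% of the CIP/KIP sum. Of relatives outside the set, looked at after the values were seen, the third D cyclin CCND3 averaged 17.9 ± 3.67 TPM in knock-down and 15.9 ± 5.88 TPM in control (SD, n = 6 each), and the INK4 gene CDKN2D 19.7 ± 4.16 TPM in knock-down and 22.4 ± 4.04 TPM in control. Summed exon lengths include exons that these tumours may not use, which lowers the TPM of genes with many annotated isoforms.

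**Figure D1:**
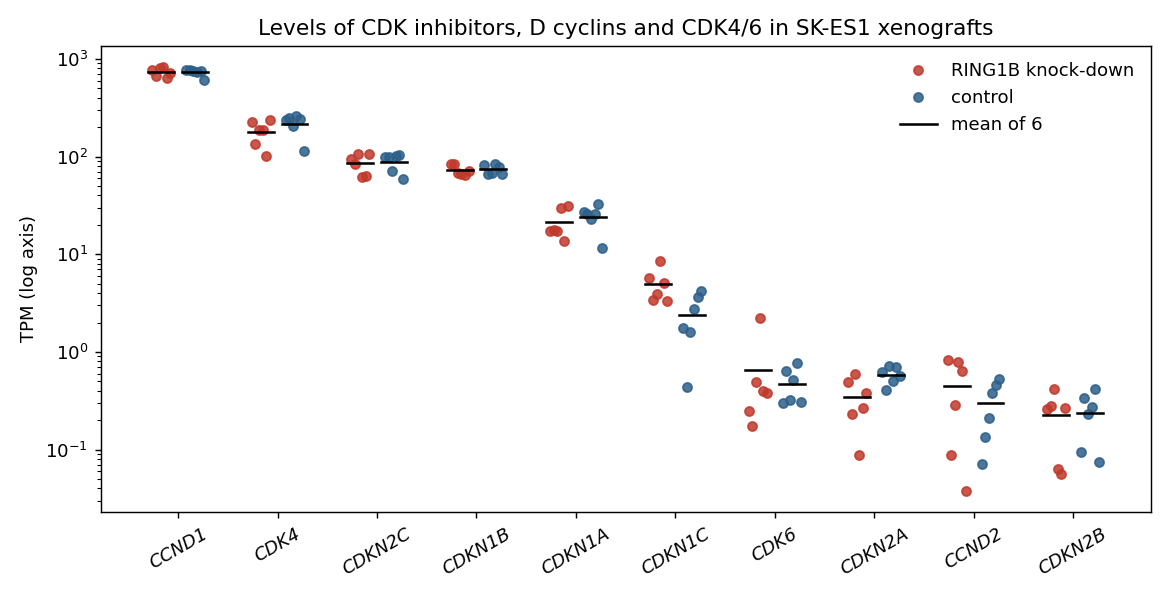
TPM of the 10 genes in each library on a log axis, with the 6 knock-down libraries left of the 6 control libraries and bars at the mean of 6. CCND1 lies between 612 and 823 TPM in all 12 libraries, while CDK6, CDKN2A, CCND2 and CDKN2B lie below 1 TPM in all but knockdown 4, where CDK6 is at 2.21 TPM.

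None of the 10 genes was called between RING1B knock-down and control. Of the 10, 9 passed the filter on low counts, CDKN2B being too low, and 0 of the 9 had a Benjamini-Hochberg adjusted p below 0.05 in edgeR's quasi-likelihood test, against 49 of 16519 genes in all (0.297%). DESeq2, which gave no p for CDK6, and limma-voom also called 0 of the 9, against 2.12% and 0.339% of all genes. At an unadjusted p below 0.05 there were 2 of 9, CDKN2A with a lower and CDKN1C with a higher mean in knock-down, against 12.7% of all genes. The groups overlapped for all 9, while they did not for 1.22% of all genes. The median log2 fold change was 0.02 over the 9 and 0.01 over all genes, and 6 of 9 were positive, against 52.4% of all genes. In tumour tissue, fewer cells that express a gene and less of its RNA per cell cannot be told apart.

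**Figure D2:**
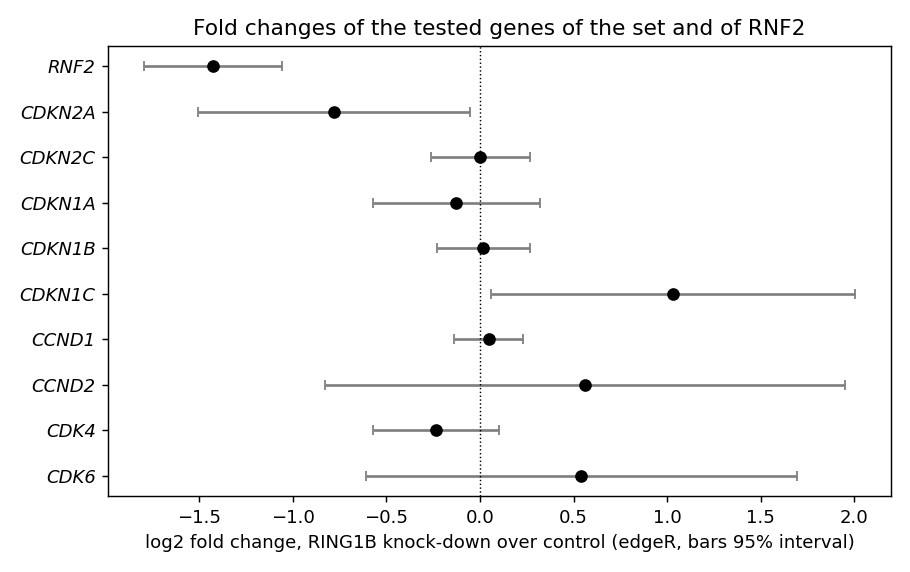
Log2 fold change of knock-down over control for RNF2 and for the 9 genes of the set that were tested, with 95% intervals from the edgeR fit. RNF2 lies at −1.43; the intervals of CDKN2C, CDKN1B and CCND1 reach at most 0.27 from 0, those of CDK6 and CCND2 are the widest, and those of CDKN2A and CDKN1C do not include 0 before adjustment.

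CDKN2A, the gene that PRC1 is best known for silencing, was barely detected in either group. The table holds 1 row for it, so reads from its 2 starts were counted together; the 250 bases before each start are shown for that reason, from RefSeq on GRCh38.p14, both on the minus strand, 5′ to 3′, with the GC box GGGCGG (searched on both strands) in capitals. The first lies at chr9:21995325-21995574 and precedes the p14ARF exon, and the second lies at chr9:21974858-21975107 and precedes the p16INK4A exon.
CDKN2A, start of p14ARF: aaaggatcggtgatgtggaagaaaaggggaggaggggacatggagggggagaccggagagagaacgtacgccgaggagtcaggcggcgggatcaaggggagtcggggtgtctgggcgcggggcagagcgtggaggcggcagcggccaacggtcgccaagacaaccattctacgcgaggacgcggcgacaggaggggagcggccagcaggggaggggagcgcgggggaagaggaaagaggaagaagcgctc
CDKN2A, start of p16INK4A: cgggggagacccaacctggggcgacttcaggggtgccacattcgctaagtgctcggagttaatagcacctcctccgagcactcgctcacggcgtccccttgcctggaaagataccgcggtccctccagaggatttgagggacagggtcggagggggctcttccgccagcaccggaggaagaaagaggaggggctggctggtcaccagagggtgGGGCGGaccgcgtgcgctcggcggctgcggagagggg
They hold 24 and 20 CpG dinucleotides, against a median of 11 over 35116 such windows of all genes. The GC box occurs in the second window and not in the first, and in 42.6% of all windows. None of the E2F octamers TTTCCCGC, TTTGGCGC, TTTGCCGC and TTTCGCGC, searched on both strands, occurs in these letters, and 2.79% of all windows hold one.

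CDKN2A (chromosome 9, 21967753 to 21995301, hg38, minus strand, in GENCODE release 29 as all loci here) had 16, 8, 20, 3, 10 and 12 reads in knockdown 1 to 6, against 21, 13, 23, 16, 23 and 24 reads in control 1 to 6. Of the knock-down libraries 4 lay below every control, knockdown 1 and 3 lay within the control range, and knockdown 4 was at the floor of 3 reads. Means were 0.453 ± 0.214 CPM in knock-down and 0.788 ± 0.198 CPM in control (SD, n = 6 each). The fold was 0.582 with a 95% interval from 0.352 to 0.963 (log2 fold change −0.78, SE 0.341, edgeR adjusted p = 0.358). The interval, not adjusted for the number of genes, lies on the side of a lower level in knock-down, and the difference did not pass correction. The log2 fold change was −0.59 without knockdown 4 and −0.44 without knockdown 4, knockdown 5 and control 6 (edgeR adjusted p = 0.477 and 0.594). Knockdown 3 and 4 had the lowest RNF2, at 12.4 and 12.9 CPM, and were the highest and the lowest knock-down libraries for CDKN2A, at 0.728 and 0.128 CPM.

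CDKN2B, which encodes p15INK4B, lies next to CDKN2A (chromosome 9, 22002903 to 22009363, minus strand) and was lower still. It had 8, 9, 13, 2, 2 and 8 reads in knockdown 1 to 6 and 3, 10, 7, 8, 13 and 3 reads in control 1 to 6, with sums of 42 reads in knock-down and 44 reads in control. The groups lay over one another, and in a fit with no filter on counts its log2 fold change was −0.05, with a wide interval from −1.06 to 0.96 (edgeR adjusted p = 0.998). CDKN2A and CDKN2B are paralogs, and the sources used here do not say how reads that match both were counted. The noncoding RNA gene CDKN2B-AS1 (ANRIL) runs antisense to CDKN2B and shares 341 exon bases with CDKN2A on the opposite strand, 7.88% of the exon bases of CDKN2A. It had 15 to 55 reads in knock-down and 22 to 39 in control (log2 fold change 0.26, SE 0.286, edgeR adjusted p = 0.745). MTAP, the neighbour on the other side of CDKN2A, was at 20.3 ± 3.41 CPM in knock-down and 24.7 ± 2.13 CPM in control (SD, n = 6 each, log2 fold change −0.28, edgeR adjusted p = 0.348). MTAP had 363 to 608 reads in knock-down and 548 to 684 in control libraries. The copy number of these genes was not tested.

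CDKN2C, which encodes p18INK4C (chromosome 1, 50960745 to 50974633, plus strand), was the highest of the 3 INK4 genes of the set in every library. Its lowest, median and highest values were 68.7, 93.7 and 103 CPM in knock-down, against 69.1, 92.7 and 104 CPM in control. The ranges coincided almost wholly, with knockdown 4 and control 3 at the low ends. The log2 fold change was 0.0016 with a 95% interval from −0.26 to 0.27, or a fold between 0.834 and 1.20 (SE 0.124, edgeR adjusted p = 0.997).

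Among the CIP/KIP genes, CDKN1C had the largest log2 fold change of the 9 tested genes. CDKN1C encodes p57KIP2, is imprinted, and lies on chromosome 11 from 2883213 to 2885773 (minus strand). It had 107, 67, 76, 166, 110 and 60 reads in knockdown 1 to 6, against 34, 8, 29, 50, 69 and 102 reads in control 1 to 6. Means were 3.98 ± 1.75 CPM in knock-down and 1.95 ± 1.402 CPM in control (SD, n = 6 each), and all 6 knock-down libraries lay above the control median of 1.598 CPM, while of these only knockdown 4 and 5 lay above control 6, the highest control. The fold was 2.05 with an interval from 1.04 to 4.01 (log2 fold change 1.03, SE 0.456, edgeR adjusted p = 0.361), and the difference did not pass correction. Without knockdown 4 the log2 fold change was 0.79, and without control 6 it was 1.42 (edgeR adjusted p = 0.532 and 0.132). A fixed list of genes of its imprinted domain held no called gene among 9 tested, with KCNQ1OT1, the noncoding RNA that silences this domain in cis, at −0.32, SLC22A18 at 0.47 and the tetraspanin CD81 at 0.24 (edgeR adjusted p = 0.551, 0.584 and 0.414).

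CDKN1A encodes p21, the inhibitor that p53 induces, on chromosome 6 from 36676460 to 36687339 (plus strand). It was at 14.9, 16.8 and 30.3 CPM (lowest, median, highest) in knock-down, against 14.4, 22.2 and 29.9 CPM in control. Knockdown 4 and 6 were at 30.3 and 27.7 CPM and the other knock-down libraries between 14.9 and 18.2 CPM, so the knock-down group fell into a high pair and a low set of 4. The log2 fold change was −0.13 with an interval from −0.57 to 0.32 (SE 0.210, edgeR adjusted p = 0.847), and it ranged from −0.27 without knockdown 4 to −0.04 without control 5. Of the libraries with title letter D the mean was 15.9 CPM in 4 knock-down and 23.1 CPM in 2 control libraries, and of those with letter E 29.03 CPM in 2 knock-down and 21.6 CPM in 4 control libraries, so the direction was not the same within the letters, whose meaning the labels do not give.

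CDKN1B encodes p27KIP1, which holds CDK2 in check in resting cells, on chromosome 12 from 12715058 to 12722371 (plus strand). It was at 54.3, 63.5 and 79.1 CPM in knock-down, against 52.0, 66.2 and 76.0 CPM in control, and its groups overlapped over most of their range. The log2 fold change was 0.02 with an interval from −0.23 to 0.27, a fold between 0.853 and 1.20 (SE 0.117, edgeR adjusted p = 0.967).

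CCND1, cyclin D1, was high and nearly constant in CPM. On chromosome 11 from 69641087 to 69654474 (plus strand), it held 0.102% to 0.130% of the reads of a library and ranked between 92nd and 138th of all genes by TPM. Its lowest, median and highest values were 1010, 1093 and 1322 CPM in knock-down, against 1007, 1075 and 1211 CPM in control. Knockdown 4 was the highest of the 12 libraries. Control 6 was the highest control in CPM, at 1211 CPM, but the lowest of the 12 libraries in TPM, at 612 TPM. The fold was 1.03 with an interval from 0.909 to 1.17 (log2 fold change 0.05, SE 0.0863, edgeR adjusted p = 0.866), the narrowest of the set. Of its exon bases 10.3% are also exon of LTO1 on the opposite strand. LTO1, at 31.6 ± 1.77 CPM in knock-down and 37.3 ± 3.05 CPM in control (SD, n = 6 each), had groups that did not overlap but was not called (log2 fold change −0.24, edgeR adjusted p = 0.281).

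CCND2, cyclin D2, on chromosome 12 from 4273772 to 4305350 (plus strand), was low and varied most between libraries. It had 44, 5, 16, 44, 40 and 2 reads in knockdown 1 to 6, against 4, 7, 11, 20, 25 and 37 reads in control 1 to 6. The knock-down group split into 3 libraries above every control and 3 within or below the control range. Means were 1.03 ± 0.825 CPM in knock-down and 0.695 ± 0.524 CPM in control (SD, n = 6 each), and the log2 fold change was 0.56 with an interval from −0.83 to 1.95 (SE 0.652, edgeR adjusted p = 0.76). Without knockdown 4 it was 0.31 and without control 6 it was 0.96. Of genes whose exons overlap it, CCND2-AS1 had at most 1 read and AC008012.1 at most 3 reads in any library.

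CDK4, the kinase that CCND1 partners in most tissues, lies on chromosome 12 from 57747727 to 57756013 (minus strand). It was at 116, 183 and 220.1 CPM in knock-down, against 147, 217 and 233 CPM in control. Knockdown 5 and 2 were lower than any control, at 116 and 143 CPM, and control 6 was the lowest control. The log2 fold change was −0.23 with an interval from −0.57 to 0.10 (SE 0.158, edgeR adjusted p = 0.559), and it ranged from −0.32 without knockdown 6 and −0.31 without control 6 (edgeR adjusted p = 0.349 and 0.264) to −0.14 without knockdown 5. Of the exon bases of CDK4 43.2% are also exon of TSPAN31 on the opposite strand, and since the strand setting of the counting is not given in the sources used here, reads of the pair may not all be counted. TSPAN31 was at 18.98 ± 4.17 CPM in knock-down and 19.3 ± 1.95 CPM in control (SD, n = 6 each, edgeR adjusted p = 0.958).

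CDK6 was low in 11 libraries and higher in 1. On chromosome 7 from 92604921 to 92836594 (minus strand), it had 23, 17, 47, 212, 42 and 34 reads in knockdown 1 to 6, against 29, 57, 29, 46, 72 and 37 reads in control 1 to 6. Knockdown 4 was at 9.03 CPM and the other knock-down libraries at 0.719 to 1.75 CPM, against 1.08 to 2.86 CPM in controls. The log2 fold change was 0.54 with all libraries (SE 0.539, edgeR adjusted p = 0.711) and −0.45 without knockdown 4 (SE 0.316, edgeR adjusted p = 0.621), so 1 library set its sign. DESeq2 gave no p for it. By summed CPM, several marker lists were also highest in knockdown 4, one of them the tumour's own as long as CAV1 was counted. The summed level of 11 macrophage and leukocyte markers was 37.1 CPM there, within a range from 8.41 to 37.1 CPM in knock-down and from 6.86 to 28.2 CPM in control, and 11 fibroblast and pericyte markers summed to 1641 CPM there, within 425 to 1641 CPM in knock-down and 578 to 1617 CPM in control. No marker of these lists was at 0 in knockdown 4, and 8 of the 11 macrophage and leukocyte markers averaged below 1 CPM. Most of the fibroblast and pericyte sum in knockdown 4 came from COL1A1, COL1A2 and COL3A1, at 658, 331 and 446 CPM. Markers of that list did not all go one way. ACTA2 and POSTN were highest of the 12 libraries there, at 50.2 and 32.5 CPM. LUM and FAP were lowest of the 12, at 6.34 and 7.37 CPM, and DCN, at 37.8 CPM, was lowest among knock-down libraries. The 10 endothelial markers summed to 31.8 CPM in knockdown 4 and at most 31.3 CPM in a control, and 5 of them averaged below 1 CPM. They did not all go one way either. CLDN5 was highest of the 12 libraries in knockdown 4, at 15.1 CPM, while EMCN was lowest of the 12 there, at 5.37 CPM. The 13 Ewing sarcoma markers summed to 3139 CPM in knockdown 4 and at most 2849 CPM in any other library. CAV1 gave the largest part of this last sum, at 1042 CPM in knockdown 4 and at most 926 CPM in any other library. Without CAV1 the sum was higher in knockdown 2 than in knockdown 4. Apart from CAV1 and BCL11B, no Ewing sarcoma marker was highest in knockdown 4. NR0B1 was at 88.1 CPM there, its lowest value among knock-down libraries. Skeletal muscle markers were not highest there, with a sum of 197 CPM in knockdown 4 against 204 CPM in control 6. Of these sums ACTN2 gave 182 and 191 CPM. The highest control for the macrophage and leukocyte and the fibroblast and pericyte lists was control 5, which was also the highest control for CDK6, at 2.86 CPM. The part of any cell type in the CDK6 value was not tested. The matrix metalloproteinase MMP1 and the transcription factor ETS1 were also highest in knockdown 4, at 342 and 18.4 CPM, against at most 11.5 and 1.47 CPM in any other library.

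**Figure D3:**
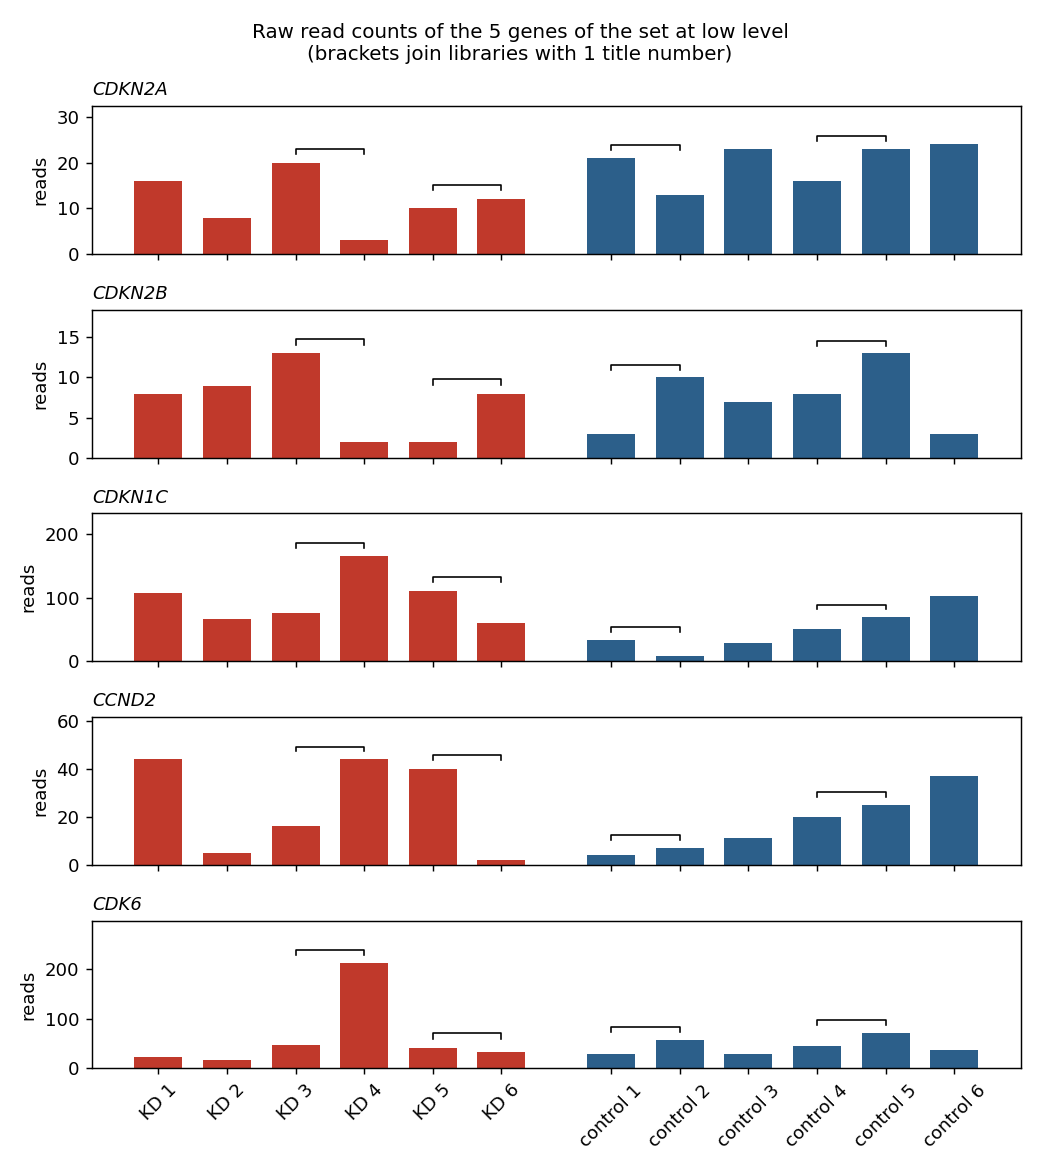
Raw reads of CDKN2A, CDKN2B, CDKN1C, CCND2 and CDK6 in the 6 knock-down (KD) and then the 6 control libraries, with brackets over libraries whose titles carry 1 number. CDK6 has 212 reads in knockdown 4 and at most 72 elsewhere, and CCND2 has 40 reads in knockdown 5 and 2 in knockdown 6, which share a number.

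Sample titles carry a number that 4 pairs of libraries share, each pair within 1 group, and the labels do not say what it means. For the low genes some of these pairs lay far apart and others close. CCND2 differed 21.2-fold in CPM between knockdown 5 and 6 and 3.22-fold between knockdown 3 and 4. CDK6 differed 5.27-fold and CDKN2A 5.70-fold between knockdown 3 and 4, and CDKN1C 4.15-fold between control 1 and 2. Between control 4 and 5 the same genes differed less, 1.28-fold for CCND2, 1.61-fold for CDK6, 1.48-fold for CDKN2A and 1.42-fold for CDKN1C, and between knockdown 5 and 6 CDKN2A differed 1.13-fold and CDK6 1.31-fold. CCND1 differed at most 1.21-fold within any of the 4 such pairs, and no cause of these differences was tested. CDK4 differed at most 1.17-fold in 3 of them and 1.90-fold between knockdown 5 and 6.

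Titles also carry a letter, D in 4 knock-down and 2 control libraries and E in 2 knock-down and 4 control libraries. The log2 ratio of mean CPM, knock-down over control, was −0.40 among D and −1.47 among E libraries for CDKN2A, and −0.82 among E libraries without knockdown 4. For CDKN1C it was 1.17 among D and 1.15 among E libraries, where leaving out knockdown 4 gave 0.16 and leaving out control 6 gave 1.75. CDKN2A and CDKN1C thus kept their sign in both letters, though the size among E libraries rested on single libraries. CDK6 was at −0.17 among D and 1.42 among E libraries, and at −0.53 among E libraries without knockdown 4. CDK4 was at −0.50 among D and 0.08 among E libraries, and at −0.04 among E libraries without control 6. With knockdown 4 left out the E group holds 1 knock-down library, and these values carry no test.

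The members differed widely in how much they varied within the groups. The SD of log2 CPM within groups was 0.11 for CCND1, lower than for all but 2.09% of tested genes and for all but 6.45% of 62 genes of like level (mean log2 CPM within 0.5). It was 1.33 for CCND2, above 98.0% of 1978 genes of like level, 0.95 for CDKN1C, above 92.2% of 1306, and 0.95 for CDK6, above 88.9% of 1400. CDKN1A stood above 88.0% of 2075 such genes and CDK4 above 82.0% of 974, with SDs of 0.41 and 0.31. CDKN2C, CDKN1B and CDKN2A were at 0.22, 0.20 and 0.55, above 49.98%, 36.0% and 46.1% of genes of their level.

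**Figure D4:**
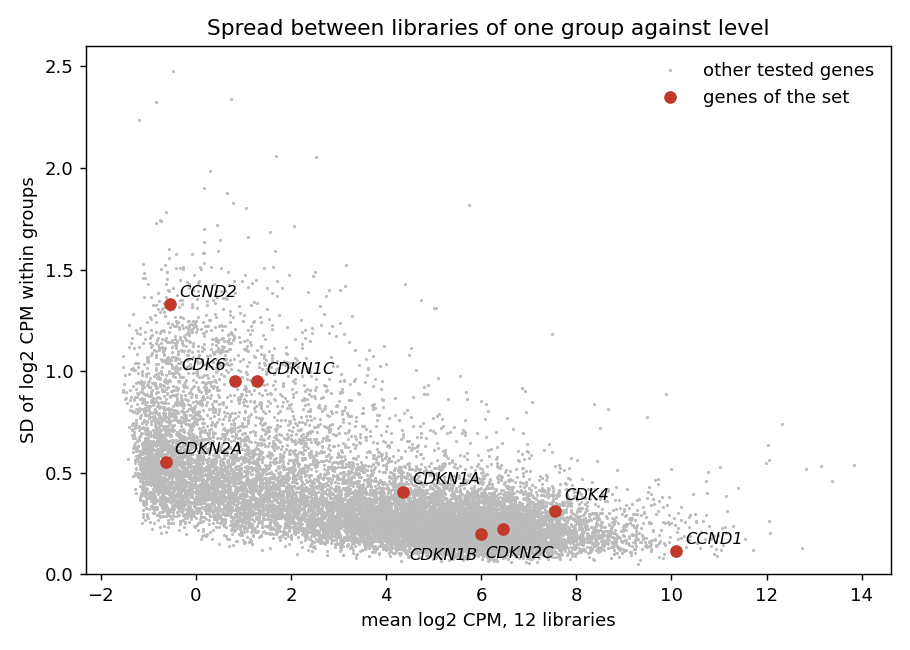
SD of log2 CPM within groups against mean log2 CPM for every tested gene (grey) and the 9 tested genes of the set (red). CCND1 lies at the lower edge of the cloud with an SD of 0.11 and CCND2 at the upper edge with 1.33.

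The genes whose pattern over the 12 libraries was most like each member, after each group mean was taken off, were looked up among 12410 coding genes with a mean of at least 1 CPM. The values of Pearson's r that follow describe these 12 libraries, are the highest of many and carry no test. CDK4 was most like KDM4A, TRAFD1 and FARSA (r from 0.973 to 0.989, and from 0.921 to 0.966 without knockdown 5 and control 6). CCND2 was most like IGSF21, HPCA and KCNJ11 (0.933 to 0.955), and CDKN1C like PALM3, EBF4 and FABP6 (0.937 to 0.943), of which FABP6, the ileal bile acid binding protein, was called higher in knock-down at 7.36 ± 2.91 CPM against 1.61 ± 1.01 CPM in control (SD, n = 6 each, edgeR adjusted p = 0.0397). CDKN1A was most like SLC35C2, NUDT18 and VIPAS39 (0.894 to 0.945), CDKN2C like SLC25A10, NR2F6 and BTBD6 (0.934 to 0.943) and CDKN1B like SNRPD3, PIP4P2 and NONO (0.906 to 0.934). CDK6 was most like CLU, SHISA6 and ABAT (0.928 to 0.932), which with knockdown 4 and knockdown 2 left out gave 0.651 to 0.785. CCND1 was most like PIK3CD, INHBA and RALGDS (0.923 to 0.925), and without knockdown 4 and control 6 these gave 0.652 to 0.688. CDKN2A, at its low counts, was most like TAF5L, ANGPT1 and GPR158 (0.808 to 0.865), which without knockdown 4 and control 2 gave 0.654 to 0.895. For the other 5 members the same step, with the 2 libraries farthest from the member's median left out, gave 0.821 to 0.968.

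The rest of the pathway was described by lists of genes. Of 9 other cyclins and CDKs of G1 and S phase edgeR called none (0 at an unadjusted p below 0.05, and 0 by DESeq2 or limma-voom), with the mitotic kinase CDK1 at a log2 fold change of 0.28, CDK2 at −0.15 and cyclin A2, CCNA2, at −0.16 (edgeR adjusted p = 0.469, 0.523 and 0.559). Their median was −0.15, and −0.0035 without control 6, knockdown 4 and knockdown 5. Of 18 genes of the RB and E2F families none was called by these 3 tools. An unadjusted edgeR p below 0.05 was found for 3 (16.7%, against 12.7% of all genes). They were the repressive factors E2F4 (−0.30) and E2F7 (−0.49) and the E2F partner TFDP2 (−0.24), with adjusted p of 0.322, 0.339 and 0.352. Genes that E2F factors activate were negative in 21 of 26 and positive in 5 (19.2%, against 52.4% of all genes). Their median was −0.11, against 0.01 over all genes. None was called by the 3 tools, and 6 had an unadjusted p below 0.05 (23.1%, against 12.7% of all genes). The flap endonuclease FEN1 was at −0.35, the origin recognition subunit ORC1 at −0.37 and thymidylate synthase, TYMS, at −0.34 (edgeR adjusted p = 0.217, 0.302 and 0.322). Without control 6, knockdown 4 and knockdown 5 the E2F targets had a median of −0.09, with 8 of 26 positive.

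Genes that p53 induces had a median of 0.04 and 14 of 25 above 0 (56%, against 52.4% of all genes). None was called by edgeR or limma-voom, and 1 (FAS, adjusted p = 0.0465) by DESeq2. At an unadjusted edgeR p below 0.05 there were 2 (8%, against 12.7% of all genes). The death receptor FAS was at 8.50 ± 2.10 CPM in knock-down and 5.34 ± 1.15 CPM in control (SD, n = 6 each, log2 fold change 0.67, edgeR adjusted p = 0.18), the exonuclease AEN at −0.25 and TIGAR, which lowers glycolytic flux, at 0.57 (edgeR adjusted p = 0.287 and 0.418). Regulators of the stability and activity of p27, D cyclins and CDK4/6 had a median of 0.05 and 10 of 15 above 0 (66.7%, against 52.4% of all genes). None was called by the 3 tools, and 3 had an unadjusted edgeR p below 0.05 (20%, against 12.7% of all genes). Of these the deubiquitinase USP2 was at 0.72, the kinase GSK3B, which marks cyclin D1 for export and decay, at −0.25, and the cullin CUL1, scaffold of the ligase that removes p27, at 0.27 (edgeR adjusted p = 0.197, 0.266 and 0.288).

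Known regulators of the INK4-ARF locus, most of them Polycomb subunits, had a median of 0.08 and 17 of 23 above 0, none called by the 3 tools and 3 at an unadjusted p below 0.05. These were the PRC1 subunits PCGF2 (0.27) and PHC3 (−0.38) and the activator ETS1 (1.96, with its mean set by knockdown 4 as given above), with edgeR adjusted p of 0.281, 0.358 and 0.38. Of 18 senescence-associated genes 12 were tested, 7 of them positive and none called by the 3 tools, with a median of 0.19, or −0.10 without control 6, knockdown 4 and knockdown 5. At an unadjusted edgeR p below 0.05 there were 2 (16.7%, against 12.7% of all genes). MMP1 was at 3.71 (its mean likewise set by knockdown 4), the chromatin protein HMGA2 at −0.47 and the urokinase receptor PLAUR at 0.35 (edgeR adjusted p = 0.266, 0.302 and 0.397). The list of the imprinted domain had a median of 0.12 and 7 of 9 positive, with 0 at an unadjusted p below 0.05. Without the same 3 libraries it had a median of 0.05 and 5 of 9 positive. These counts are descriptions, and no list was tested as a whole.

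**Figure D5:**
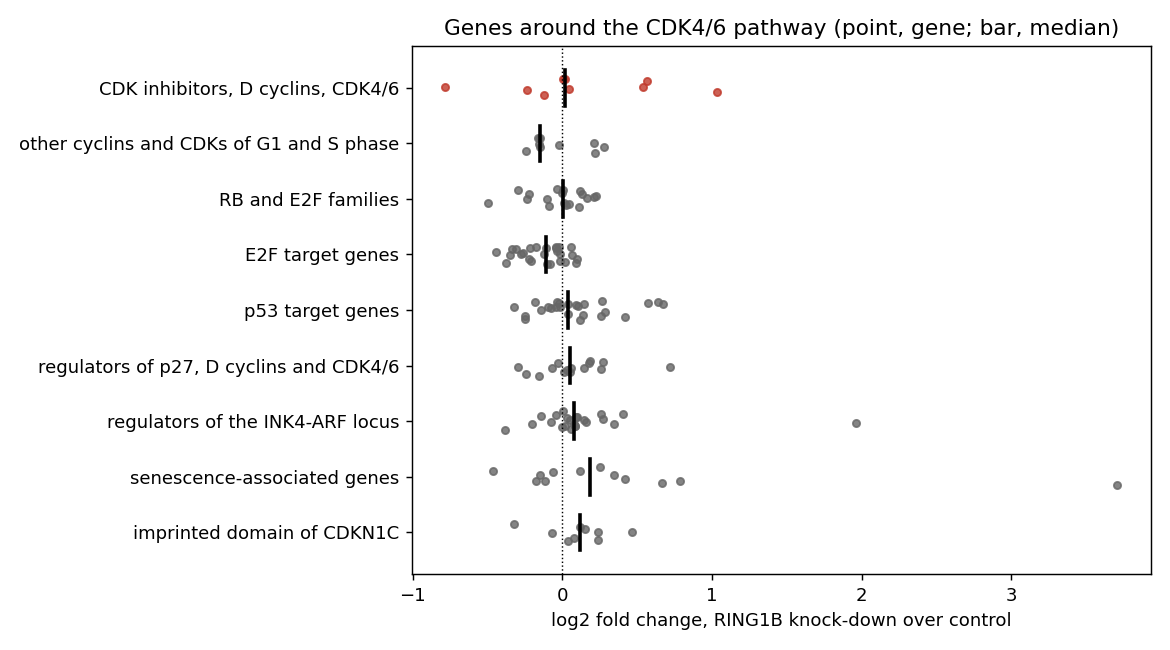
Log2 fold change of knock-down over control for each tested gene (point) and the median (bar) of the set and of 8 lists of genes around it. With all 12 libraries the medians lie between −0.15 and 0.19, and the points furthest to the right are MMP1 at 3.71 and ETS1 at 1.96.

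The balance between the classes, as summed TPM, overlapped between the groups throughout. The D cyclins summed to 3.004 to 6.35 times CDK4 and CDK6 in knock-down (median 4.30) and to 2.83 to 5.39 times in control (3.20). The ratio of D cyclins to the 6 inhibitors was 3.38 to 4.95 in knock-down (median 3.93) and 3.46 to 4.56 in control (3.86). The inhibitors stood at 0.879 to 1.45 times CDK4 and CDK6 in knock-down (median 0.969) and at 0.776 to 1.24 times in control (0.854). Control 6 was again the upper end in control, and the next highest was control 5, at 0.899 times. Knockdown 4 and 6, at 0.879 and 0.889 times, lay below control 5, and the other knock-down libraries lay above it.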

How the data were processed

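RNA was measured in 6 knock-down and 6 control xenograft libraries made with a stranded mRNA kit, per the labels' protocols. The authors deposited 1 table of raw read counts per gene; per the submitters' processing notes, STAR 2.6.0a, featureCounts and limma 3.40.2 were among the tools and hg38 was the build. The strand setting of the counting and the treatment of multi-mapping and host reads were, in the sources used here, not given. All 57169 names and exon sets were those of GENCODE release 29, and all count columns were used. The lowest chi-square per degree of freedom between libraries of a group was 12.05, so none repeats another.

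Counts were analysed with edgeR 4.0.16 in R 4.3.3 (filterByExpr, TMM factors, robust quasi-likelihood F test, no covariate, called at an adjusted p below 0.05 over 16519 genes). SEs and intervals come from the F statistic. log2 CPM values use a prior count of 2. The code was tested on simulated data: in this comparison over 16519 genes, 12 of 50 genes changed 1.5-fold were called, 30 of 50 changed 2-fold, 46 of 50 changed 3-fold and 49 of 50 changed 4-fold, with 10 false calls. Within-letter values without single libraries were added after seeing the data. Alternatives were other scalings and count filters, DESeq2 1.42.0, limma-voom (limma 3.58.1), terms for title number and letter, and libraries left out. The members, lists and tests were chosen with earlier results of these data known. Named genes are the 10 members, RNF2, up to 3 genes of each list with the smallest p, genes whose exons overlap a member, CDKN2B-AS1 and MTAP, and the 3 genes most like each member; others are said to be so. Windows before gene starts, with 7 of 10 members matched, came from RefSeq. Every interval covers counting and library spread only.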

Additional observations from a re-analysis of the deposited data

Results flagged for a closer look

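CDK6 in knockdown 4 stood apart from the other 5 knock-down libraries, at 9.03 CPM against 1.75 CPM in the next highest. The gap took up 0.875 of the range of the group, above Dixon's 95% critical value for 6 samples. Its source was not tested. Of 22 groups of 6 libraries looked at (the 10 genes and RNF2 in 2 groups each) this was the 1 that stood out, and chance alone marks about 1 in 20.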

How the results depend on the processing

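No gene of the set was called under any of the 23 alternatives, though DESeq2 gave no p for CDK6. CDKN2A, CDKN1A, CDKN1C, CCND2 and CDK4 kept their sign in all that could be fitted; a CPM of at least 1 in 6 libraries left CDKN2A and CCND2 without a value. RNF2 kept its sign and call in all 23 (log2 fold change from −1.53 to −1.33). The number of genes called in all was 49, and 351 by DESeq2, 91 with the title number as a random effect, 7 with counts summed by title number, 28 with the title letter as a covariate, 108 without control 6, knockdown 4 and knockdown 5, and 16 (without control 3 or knockdown 1) to 79 (without knockdown 4) with 1 library left out.

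Log2 fold changes near 0 changed sign, and so did that of CDK6. CDKN2C was at −0.0075 with RLE factors, −0.0097 with library size alone, −0.0058 with no low-count filter, −0.0075 by DESeq2, −0.014 with the title number as a random effect, −0.034 with the title letter, and −0.0695 to 0.0665 with 1 library left out. CDKN1B was at −0.027 with the title letter and −0.0463 to 0.0748 with 1 library left out. CCND1 was at −0.0015 with counts summed by title number and −0.0057 to 0.0805 with 1 library left out. CDK6, at 0.54 in the main fit, was at 0.02 by limma-voom and 0.06 with the title number as a random effect. It was at −0.62 without control 6, knockdown 4 and knockdown 5, and −0.45 (without knockdown 4) to 0.74 (without knockdown 2) with 1 library left out. Apart from knockdown 4, the cause was not tested. No paired analysis was possible because no title number occurs in both groups. At 2 to 24 reads, depth limits CDKN2A and CDKN2B, and intervals cannot show differences smaller than their widths.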

Other observations

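Each list of markers of host cell types had reads in every library, though not each marker did. Reads were counted on the human build hg38, and the treatment of host reads is not given. Whether the reads of these genes came from host or tumour cells was not tested. The 10 endothelial markers summed to 18.9 to 31.8 CPM in knock-down and 19.1 to 31.3 CPM in control, and 11 skeletal muscle markers to 122 to 197 CPM in knock-down and 138 to 204 CPM in control. ACTN2 alone gave most of the muscle sum, at 109 to 182 CPM in knock-down and 104 to 191 CPM in control. Of the 11 muscle markers 7 averaged below 1 CPM, and 4 were at 0 in knockdown 1. Tested markers had a positive log2 fold change in 5 of 6 endothelial (median 0.12), 6 of 7 macrophage and leukocyte (0.23), 5 of 10 fibroblast and pericyte (−0.04) and 1 of 5 muscle genes (−0.53), against 52.4% of all genes. Without control 6, knockdown 4 and knockdown 5 these medians were 0.01, −0.01, −0.24 and −0.70. edgeR called none of the 6 endothelial, 7 macrophage and leukocyte, 10 fibroblast and pericyte and 5 muscle markers it tested (2 fibroblast and pericyte markers had an unadjusted p below 0.05, against 12.7% of all genes, and limma-voom called none). Decorin, DCN, a proteoglycan of connective tissue, had the smallest p of them, at 59.2 ± 16.1 CPM in knock-down and 36.2 ± 3.24 CPM in control (SD, n = 6 each, log2 fold change 0.71, edgeR adjusted p = 0.0844, DESeq2 adjusted p = 0.00579). The collagen COL3A1 had the opposite sign, at 234 ± 117 CPM in knock-down and 324 ± 106 CPM in control (SD, n = 6 each, log2 fold change −0.47, edgeR adjusted p = 0.517), and of muscle genes the creatine kinase CKM was at −1.09 and the actin ACTA1 at −0.97 (edgeR adjusted p = 0.441 and 0.549).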
